A study of Mus musculus with 2 samples.

Results

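A set of 10 genes of DNA damage signalling were followed across the cell classes of 2 testis libraries, 1 of RAD21L KO and 1 of WT. They are the 10 rows with the symbols Atm, Atr, Topbp1, Hus1, H2ax, Mdc1, Rnf8, Brca1, Chek1 and Chek2 among the 41459 genes of the count tables. The RAD21L KO testes were Rad21l-/- and the WT testes Rad21l+/+, both taken 55 days after birth and dissociated whole. Whether a library came from 1 animal or from several is not given in the sources used here. RAD21L is a cohesin subunit made in meiosis, and male mice without it are known to stop spermatogenesis in the first meiotic prophase. Transcripts were counted in single cells caught in droplets by UMIs, the molecular barcodes that mark 1 captured molecule each.

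In early meiosis the SPO11 enzyme cuts every chromosome. The kinase ATM answers to these double-strand breaks, and ATR answers to single-stranded DNA and to chromosome axes that have not paired. TOPBP1 and the clamp of RAD9, RAD1 and HUS1 switch ATR on. The kinases phosphorylate the histone H2AX, MDC1 binds that mark and spreads it, and RNF8 adds ubiquitin around it. BRCA1 brings ATR to unpaired axes, and in the WT male the same machinery silences the X and Y chromosomes at pachytene. CHEK1 acts mainly below ATR and CHEK2 mainly below ATM, towards cell cycle arrest or cell death.

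The KO library held 7118 barcodes and 28001992 UMIs and the WT library 5415 barcodes and 33096309 UMIs, of which 6255 KO and 5400 WT cells were kept, and 14 barcodes were shared by the libraries. Cells were clustered without the 10 genes and the other pathway genes, and clusters were named from markers, hence the ending "-like". The markers include 2 of the other pathway genes, Hormad1 and Hormad2. There were 942 spermatogonia-like cells in KO and 171 in WT, 327 and 47 leptotene-like cells (markers of preleptotene to leptotene), and 204 and 44 zygotene-like cells (markers of zygotene to early pachytene). Of the spermatogonia-like cells 182 in KO were named undifferentiated. In WT all 171 were named differentiating, but 32 of them, led by genes that include Zbtb16 and Lin28a, had 495 CPM of Zbtb16 and 70.1 CPM of Gfra1, close to the 573 and 88.2 CPM of the undifferentiated KO cells, so the names do not show a difference between the libraries. Another 69 of the 171 had a higher marker score for leptotene-like (1.183) than for differentiating cells (1.036). They took the second name by the rule for close scores given below, and are part of the WT spermatogonia-like class in every ratio. In WT, 407 pachytene-like cells (pachytene and diplotene), 2747 cells like round spermatids and 1353 like elongating spermatids followed, and in KO no cluster took these names. Of the 1353, a cluster of 208 had a higher marker score for round (1.981) than for elongating spermatids (1.804). It took the second name by the rule for close scores and, at a median of 12091 UMIs, is part of every elongating spermatid-like level. Somatic cells numbered 3149 in KO and 63 in WT, and 1633 KO and 568 WT cells stayed unnamed. Levels are given as CPM, which sets the total of every class to the same sum. Stra8, the retinoic acid target that opens meiosis, stood at 1354 CPM in leptotene-like KO cells and 1483 CPM in leptotene-like WT cells, and at 42.9 and 7.11 CPM in the zygotene-like cells of KO and WT. The labels do not give which part of Rad21l is deleted. Rad21l itself had 21.9 CPM in KO and 85.9 CPM in WT over leptotene-like and zygotene-like cells together (55 and 43 UMIs, ratio 0.255, 0.168 to 0.389). With 1 library per genotype no test was possible, a ratio compares these 2 libraries only, and the ranges given are exact 95% intervals that cover counting error alone (Poisson for levels, conditional binomial for ratios).

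H2ax had a row in both tables and 0 UMIs in both libraries, so no level can be described for it. A count of 0 allows up to 0.112 CPM over all kept KO cells and 0.0907 CPM over all kept WT cells, taking 3 counts as the limit. The same was true of 2647 of 21702 protein-coding genes, which had 0 UMIs in both libraries. Why H2ax had none was not tested. The results below therefore rest on the other 9 genes.

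For 9 of the 10 genes the promoter sequence was found in RefSeq (GRCm38.p6, 250 bases before to 50 after the start). The counts were made on GRCm39, so these coordinates are those of the sequence table only. The promoters of Atm (chr9:53536622-53536921, minus strand), Chek1 (chr9:36726609-36726908, minus strand), Atr (chr9:95857347-95857646, plus strand) and Mdc1 (chr17:35841248-35841547, plus strand) are shown because their genes differ in course: Atm and Chek1 were low in zygotene-like cells, Atr and Mdc1 were not. Capitals mark TTCCCGC, a core of the sites of E2F factors, and CCAAT, the box bound by NF-Y, on either strand, and the Atr window holds neither.
Atm: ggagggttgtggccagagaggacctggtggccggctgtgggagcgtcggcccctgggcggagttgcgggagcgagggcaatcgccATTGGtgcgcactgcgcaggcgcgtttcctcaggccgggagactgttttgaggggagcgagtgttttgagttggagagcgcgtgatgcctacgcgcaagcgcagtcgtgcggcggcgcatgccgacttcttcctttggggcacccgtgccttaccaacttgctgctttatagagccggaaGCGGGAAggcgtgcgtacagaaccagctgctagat
Chek1: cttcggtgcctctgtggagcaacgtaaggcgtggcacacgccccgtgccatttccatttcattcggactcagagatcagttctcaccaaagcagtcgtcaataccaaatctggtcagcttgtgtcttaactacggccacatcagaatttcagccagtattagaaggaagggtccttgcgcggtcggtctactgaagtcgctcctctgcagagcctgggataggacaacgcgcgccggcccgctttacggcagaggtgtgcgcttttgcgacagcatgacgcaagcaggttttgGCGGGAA
Atr: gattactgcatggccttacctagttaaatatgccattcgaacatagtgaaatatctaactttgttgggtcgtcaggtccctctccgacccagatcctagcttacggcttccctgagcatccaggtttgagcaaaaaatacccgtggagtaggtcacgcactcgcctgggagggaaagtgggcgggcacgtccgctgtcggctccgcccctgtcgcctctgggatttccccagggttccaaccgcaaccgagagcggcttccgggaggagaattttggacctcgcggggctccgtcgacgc
Mdc1: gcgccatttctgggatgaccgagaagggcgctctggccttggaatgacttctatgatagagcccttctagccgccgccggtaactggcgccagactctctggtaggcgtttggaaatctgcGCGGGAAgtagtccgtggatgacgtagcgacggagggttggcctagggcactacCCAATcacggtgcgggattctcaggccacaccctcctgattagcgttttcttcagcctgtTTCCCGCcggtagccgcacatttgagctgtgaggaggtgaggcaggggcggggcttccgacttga

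The letters TTCCCGC were present in 5 of 9 promoters (Atm, Chek1, Chek2, Rnf8 and Mdc1) and in 4.66% of 27025 RefSeq mouse promoters of the same length. They were in genes of both courses, Atm and Chek1 on one side and Mdc1 on the other, and were not in the windows of Atr, Topbp1, Hus1 and Brca1. CCAAT was in 5 of 9 promoters (Atm, Chek2, Rnf8, Brca1 and Mdc1), against 37.9% of all promoters. CCGGAAG, an ETS core, was in Atm, Atr and Topbp1, and in 9.12% of all promoters. In Atm it overlaps the TTCCCGC match by 1 letter, the only overlap between motifs in the 9 windows. CNCCTCAG, letters bound by STRA8, was in none of the 9 windows and in 7.97% of all promoters. TGACG, a short site of CREB and ATF factors, and AACTG, a MYB core, were each in 5 of 9 windows, against 21.0% and 44.8% of all promoters. The 9 windows held between 19 and 38 CpG dinucleotides, against a median of 7 over all promoters. A match is a description of letters only, and promoter activity was not measured. By the same annotation 5 of the 10 genes lie on chromosome 9, which holds 5.14% of genes, and none is on a sex chromosome.

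**Figure D1:**
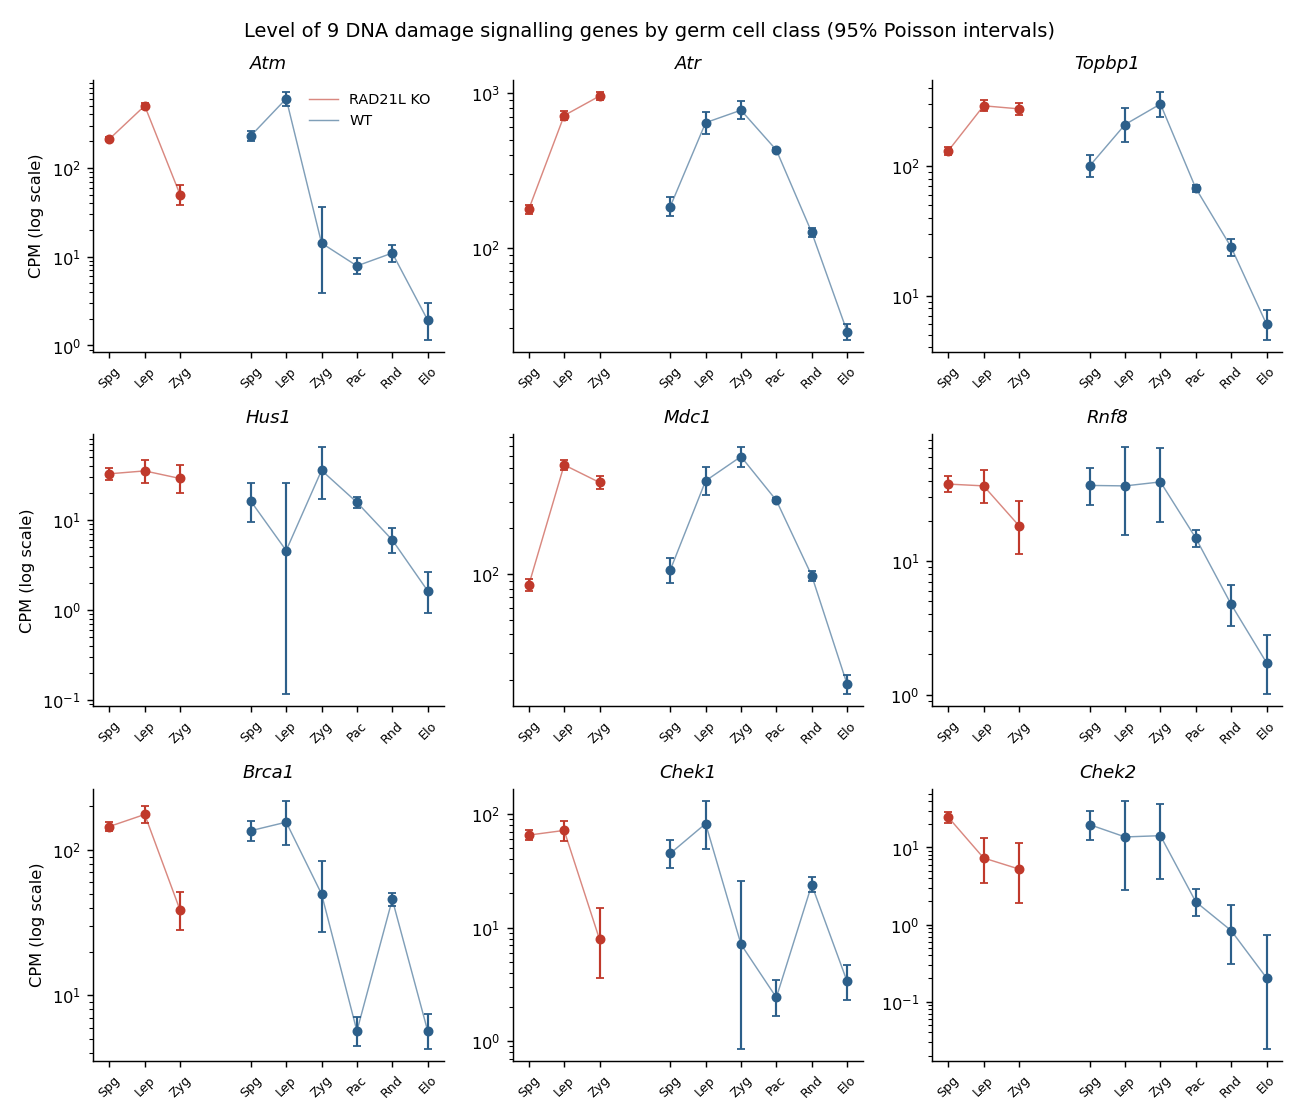
Level in CPM (log axis) of 9 DNA damage signalling genes in germ cell classes of the RAD21L KO library (red, left) and the WT library (blue, right), as points with exact Poisson 95% intervals. Spg, Lep, Zyg, Pac, Rnd and Elo are spermatogonia-like, leptotene-like, zygotene-like and pachytene-like cells and cells like round and elongating spermatids. In both libraries Atm, Brca1 and Chek1 are lower in Zyg than in Lep, while Atr, Topbp1 and Mdc1 are not past 2-fold lower.

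The apical kinases differed between leptotene-like and zygotene-like cells, Atm being low in the later class and Atr high. In KO, Atm stood at 211 CPM in spermatogonia-like, 501 CPM in leptotene-like and 49.9 CPM in zygotene-like cells. In WT it stood at 230, 603 and 14.2 CPM in the same classes, then at 7.88 CPM in pachytene-like, 11.0 CPM in round spermatid-like and 1.93 CPM in elongating spermatid-like cells. Leptotene-like cells were thus highest in both libraries. The ratio of zygotene-like over leptotene-like cells was 0.0995 for Atm in KO (0.0746 to 0.131, 57 and 686 UMIs, log2 -3.33) and 0.0236 in WT (0.00634 to 0.0619, 4 and 132 UMIs, log2 -5.40). Atr, in contrast, stood at 177, 716 and 957 CPM in the 3 KO classes. In WT it stood at 184, 644 and 775 CPM, and still at 428 CPM in pachytene-like, 125 CPM in round spermatid-like and 28.6 CPM in elongating spermatid-like cells. Its ratio of zygotene-like over leptotene-like cells was 1.34 (1.22 to 1.46) in KO and 1.204 (0.970 to 1.499) in WT. Leptotene-like over spermatogonia-like cells gave Atr a ratio of 4.04 (3.70 to 4.42) in KO and 3.50 (2.80 to 4.35) in WT.

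Cells with at least 1 UMI gave the same picture at equal depth. With each cell thinned to 2000 UMIs and shallower cells left out, Atm was found in 11.1% of 198 zygotene-like and 67.3% of 312 leptotene-like KO cells. In WT it was found in 2.33% of 43 zygotene-like and 66.0% of 47 leptotene-like cells. Before thinning these shares were 25.0% of zygotene-like and 83.5% of leptotene-like cells in KO, and 6.82% and 91.5% in WT. Atr was found after thinning in 83.8% of zygotene-like and 67.9% of leptotene-like KO cells, and in 79.1% and 70.2% of these WT cells. Sertoli-like KO cells thinned in the same way held an Atm UMI in 9.78% of 1125 cells, and before thinning in 28.9% of cells with a median of 6901 UMIs, where zygotene-like KO cells had a median of 4787 UMIs. Thus the Atm share in zygotene-like KO cells was close to that of a somatic class. By level the same held, with 49.9 CPM in zygotene-like and 49.5 CPM in Sertoli-like KO cells.

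The early classes can be divided further in KO. Of its 2 leptotene-like sub-clusters, the one led by H2ac1, Meiosin and Stra8 (212 cells) had 527 CPM of Atm and 486 CPM of Atr. The one led by Pbx3, Zcwpw1 and Dmc1, a recombinase of meiosis (115 cells), had 446 CPM of Atm and 1209.95 CPM of Atr. In the 2 zygotene-like sub-clusters Atm stood at 69.7 CPM (119 cells) and 32.7 CPM (85 cells), and Atr at 1072 and 857 CPM. Atr was therefore already high in a sub-cluster in which Atm was still high.

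The genes that activate ATR behaved less alike. Topbp1 stood at 131, 293 and 277 CPM in spermatogonia-like, leptotene-like and zygotene-like KO cells. In WT it stood at 101, 210 and 302 CPM, then at 67.6 CPM in pachytene-like, 23.7 CPM in round spermatid-like and 6.002 CPM in elongating spermatid-like cells. It resembled Atr up to zygotene, and after it the level in pachytene-like over zygotene-like WT cells had a ratio of 0.223 (0.179 to 0.283), where that of Atr was 0.552 (0.482 to 0.635). Hus1 stood at 32.6, 35.1 and 28.9 CPM in the 3 KO classes, with overlapping intervals. In WT it had 18 UMIs in spermatogonia-like (16.2 CPM), 1 UMI in leptotene-like and 10 UMIs in zygotene-like cells (35.6 CPM), too few to order, and 15.7 CPM in pachytene-like cells.

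Of the mediators, Mdc1 had a course like that of Atr, except between leptotene-like and zygotene-like KO cells. Over that step in KO the ratio was 0.766 (0.680 to 0.863) for Mdc1 and 1.34 (1.22 to 1.46) for Atr. Mdc1 stood at 84.5, 523 and 401 CPM in spermatogonia-like, leptotene-like and zygotene-like KO cells. In WT it stood at 106, 411 and 594 CPM, then at 305 CPM in pachytene-like, 97.4 CPM in round spermatid-like and 18.7 CPM in elongating spermatid-like cells. Leptotene-like over spermatogonia-like cells gave Mdc1 a ratio of 6.19 (5.50 to 6.97) in KO, the largest of the 9 genes. In KO it stayed above Atr at equal depth, at 6.67 against 3.98. In WT the Mdc1 ratio was 3.88 (2.91 to 5.14), an interval that overlaps that of Atr (3.50, 2.80 to 4.35). At equal depth the WT ratio was 3.45 for Mdc1 and 3.75 for Atr, so these genes cannot be ordered in WT. Rnf8 stood at 37.7, 36.5 and 18.4 CPM in the KO classes, and at 36.8, 36.5 and 39.1 CPM in the WT classes, then at 14.8, 4.73 and 1.73 CPM in the pachytene-like class and the 2 spermatid-like classes. Its counts in the WT leptotene-like and zygotene-like cells were only 8 and 11 UMIs.

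Brca1 and Chek1 were low in zygotene-like cells like Atm, and they were past 2-fold higher in round spermatid-like than in pachytene-like cells, where Atm had a ratio of 1.40 (1.03 to 1.89). Brca1 stood at 145, 175 and 38.5 CPM in the 3 KO classes and at 136, 155 and 49.8 CPM in those of WT. Zygotene-like over leptotene-like cells gave Brca1 a ratio of 0.220 in KO (0.155 to 0.304, log2 -2.19) and 0.321 in WT (0.159 to 0.614, log2 -1.64). Chek1 stood at 65.1, 71.6 and 7.88 CPM in KO and at 44.9, 82.2 and 7.11 CPM in WT. Its ratio over the same step was 0.110 in KO (0.0488 to 0.217, 9 and 98 UMIs) and 0.0866 in WT (0.00974 to 0.362, 2 and 18 UMIs). In WT pachytene-like cells Brca1 was down to 5.68 CPM and Chek1 to 2.42 CPM. Round spermatid-like WT cells then had 45.6 CPM of Brca1, a ratio over pachytene-like cells of 8.03 (6.23 to 10.5), and 23.8 CPM of Chek1, a ratio of 9.82 (6.70 to 14.8). These levels were above the mean of the whole WT library, 20.7 CPM for Brca1 and 9.61 CPM for Chek1. At equal depth 9.37% of 918 round spermatid-like cells held a Brca1 UMI, against 1.47% of 407 pachytene-like cells. Before thinning these shares were 10.7% and 16.2%, at median depths of 1716 and 30761 UMIs. In elongating spermatid-like cells the thinned share was 1.67%. The 4 round spermatid-like clusters had between 20.8 and 75.9 CPM of Brca1 and between 12.4 and 37.2 CPM of Chek1, all above the pachytene-like level.

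Chek2 was the only one of the 9 genes past 2-fold lower in leptotene-like than in spermatogonia-like KO cells. It stood at 24.7, 7.31 and 5.25 CPM in spermatogonia-like, leptotene-like and zygotene-like KO cells, and leptotene-like over spermatogonia-like cells had a ratio of 0.296 (0.139 to 0.561). In WT it stood at 19.8 CPM in spermatogonia-like cells, and the 3 and 4 UMIs of the next 2 classes (13.7 and 14.2 CPM) cannot be told from that. It stood at 1.97 CPM in pachytene-like, 0.835 CPM in round spermatid-like and 0.203 CPM in elongating spermatid-like cells. Within KO spermatogonia-like cells the other 8 genes had ratios of differentiating over undifferentiated cells between 1.05 and 1.42. The intervals of Atm, Atr and Topbp1 lay above 1, and those of Hus1, Mdc1, Rnf8, Brca1 and Chek1 included no difference. Chek2 had a ratio of 0.716 (0.494 to 1.05), which also includes no difference. None of the 9 was past 2-fold there, beside 22.8% of 12224 genes (10.6% higher, 12.2% lower).

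With at least 20 UMIs in both classes together and a ratio past 2-fold as the rule, counts under 3 being raised to 3, 5 of 9 genes differed between leptotene-like and spermatogonia-like KO cells (4 higher, 1 lower), beside 31.5% of 12762 genes (10.9% higher, 20.7% lower). In WT 4 of 8 were past 2-fold, all higher, beside 26.8% of 9085 genes (11.1% higher, 15.7% lower). Atm, Atr, Topbp1 and Mdc1 were the higher genes in both libraries. Between zygotene-like and leptotene-like cells 3 of 8 genes were past 2-fold in KO and 3 of 6 in WT, all lower, beside 36.7% of 9856 genes in KO (16.8% higher, 19.9% lower) and 35.9% of 5323 genes in WT (18.4% higher, 17.5% lower). Atm, Brca1 and Chek1 were lower in both. Between pachytene-like and zygotene-like WT cells 6 of 9 were past 2-fold, all lower, beside 57.8% of 13258 genes (13.7% higher, 44.2% lower). There the median gene stood at -0.78 on the log2 scale, and relative to it Topbp1, Brca1 and Chek2 stayed past 2-fold lower by CPM. Chek1, with 2 UMIs in zygotene-like cells, was at -0.78 relative to the median by CPM and past 2-fold only with these raised to 3. Between round spermatid-like and pachytene-like WT cells 8 of 9 were past 2-fold, 6 of them lower, beside 56.3% of 17120 genes (36.4% higher, 19.9% lower). All 8 genes with 20 UMIs were lower in elongating than in round spermatid-like cells, beside 74.9% of 16444 genes past 2-fold (8.53% higher, 66.4% lower), with the median gene at -1.59.

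**Figure D2:**
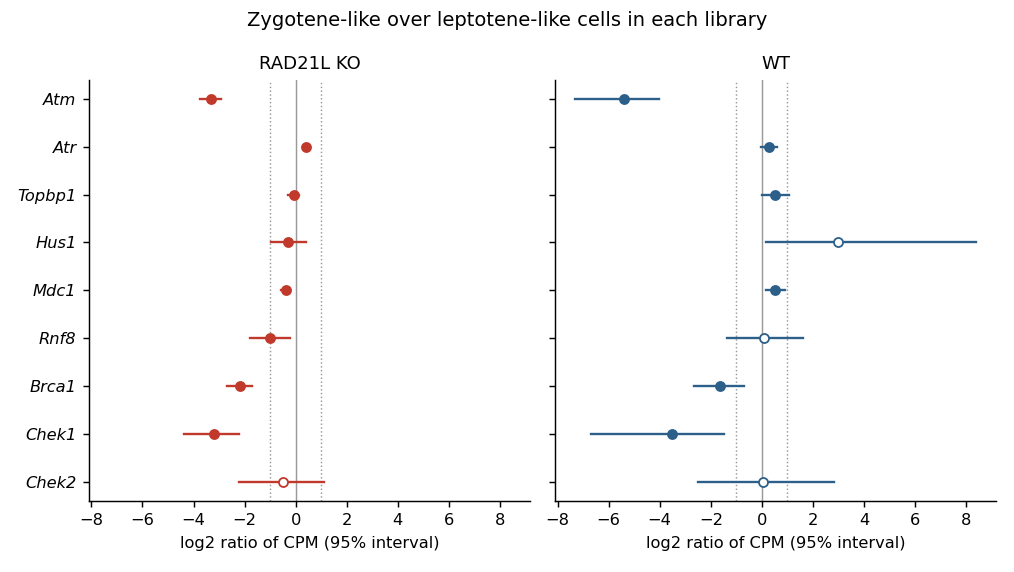
Log2 ratio of CPM, zygotene-like over leptotene-like cells, of 9 genes in the RAD21L KO library (left) and the WT library (right), with exact 95% intervals. Dotted lines mark 2-fold and open circles stand for genes under 20 UMIs. Atm, Brca1 and Chek1 lie left of the dotted line in both libraries.

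Other genes of the pathway moved in both directions between these classes, and more were lower than higher. Of 56 other damage signalling genes listed, 22 of the 52 with enough UMIs were past 2-fold lower in zygotene-like than in leptotene-like KO cells, 3 were higher and 27 were not past 2-fold, beside 19.9% of all genes lower and 16.8% higher. In WT 14 of 37 were lower, 5 higher and 18 not past 2-fold, beside 17.5% of all genes lower and 18.4% higher. The listed genes had a median of -0.61 in KO and -0.31 in WT on the log2 scale, against -0.06 and 0.07 over all genes. Of 37 listed genes with 20 UMIs in both comparisons 13 were lower in both libraries, which is 76.5% of those lower in KO and 92.9% of those lower in WT. Over all genes these shares were 72.7% and 62.4%, and 572 of 4895 genes (11.7%) were lower in both. The 13 were Mre11a, Rad50 and Nbn, which form the complex that recruits ATM to breaks, the end resection factor Rbbp8, Prkdc, the fork genes Clspn, Timeless and Tipin, Brca2, Brip1, Mcph1, Cdc25a and the cohesin subunit Smc3. Higher in both were 2 genes, Tlk2, a kinase of chromatin assembly, and Hormad1, an axis protein that helps recruit ATR. Hormad1 had 1602 CPM in zygotene-like and 509 CPM in leptotene-like KO cells, and 1124 and 443 CPM in those WT cells. Hormad1 was, however, among the markers that named the zygotene-like class, and Hormad2 among those of the leptotene-like class. Their changes over this step are therefore not independent of the class names. By role, 9 of 12 listed sensors were lower in KO and 5 of 10 in WT, with none higher. Of clamp and fork genes 3 of 7 were lower in KO and 3 of 5 in WT, with none higher. Of mediators 7 of 20 were lower and 2 higher in KO, and 4 of 14 lower and 3 higher in WT. Of effectors 3 of 13 were lower and 1 higher in KO, and 2 of 8 lower and 2 higher in WT. The genes named in this paragraph were picked after their values were seen. The summed level of 25 DNA replication genes also moved over this step, with 1488 CPM in zygotene-like and 4315 CPM in leptotene-like KO cells, and 1639 and 3916 CPM in those WT cells, and its part in the values of these genes was not tested.

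Atm, Atr and Brca1 each start close to a neighbour on the other strand. The closest, 1700065D16Rik at 80 bases from Atr, did not have the course of Atr. It had 8, 7 and 2 UMIs in spermatogonia-like, leptotene-like and zygotene-like KO cells (1.46, 5.11 and 1.75 CPM). In WT it had 9, 4 and 3 UMIs in these classes and was highest in pachytene-like cells, at 56.9 CPM, with 33.7 CPM in round spermatid-like cells. Npat, a coactivator of histone genes, starts 376 bases from Atm in the GRCm38.p6 annotation. It stood at 139, 369 and 73.5 CPM in spermatogonia-like, leptotene-like and zygotene-like KO cells. In WT it stood at 141, 301 and 60.5 CPM, then at 35.9 CPM in pachytene-like cells. Its ratio of zygotene-like over leptotene-like cells was 0.199 (0.156 to 0.251) in KO and 0.201 (0.110 to 0.346) in WT, and the Atm ratios lay below these with intervals that do not overlap. Nbr1, an autophagy receptor, starts 699 bases from Brca1. It had 208 CPM in round spermatid-like and 31.4 CPM in pachytene-like WT cells, a ratio of 6.62 (5.93 to 7.40) where Brca1 had 8.03. Zygotene-like over leptotene-like cells gave Nbr1 a ratio of 0.376 (0.262 to 0.532) in KO and 0.861 (0.542 to 1.37) in WT, a difference that was not tested. These neighbours were looked at after the values of Atm and Brca1 were known.

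**Figure D3:**
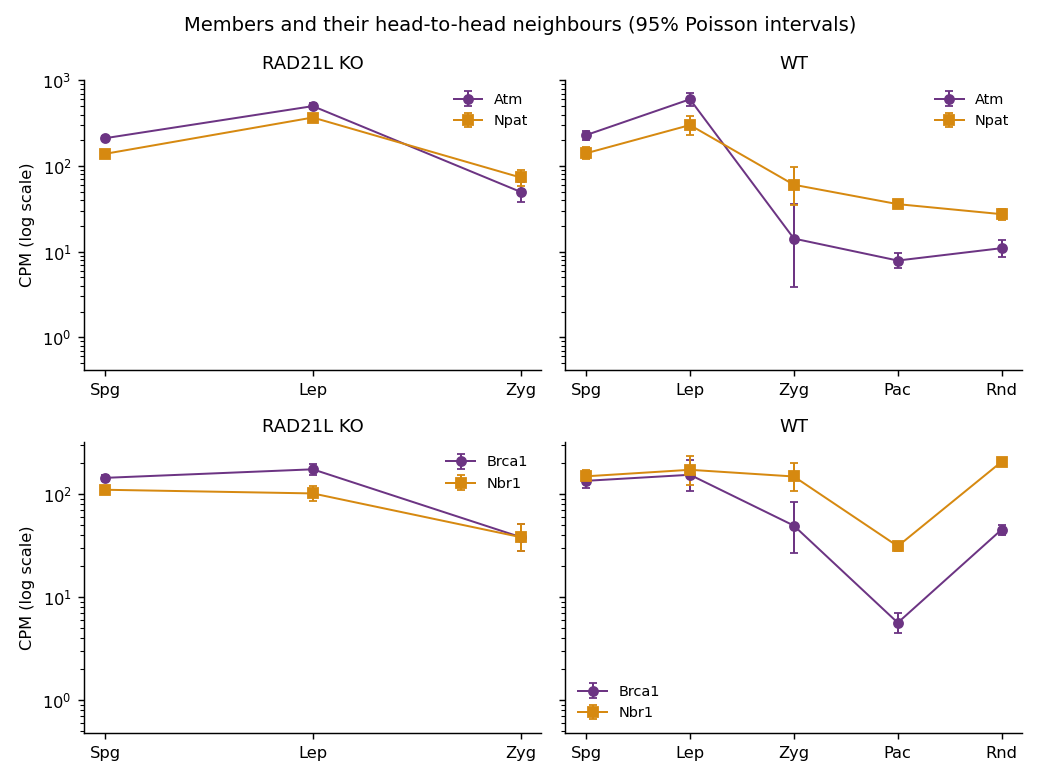
Level in CPM (log axis) of Atm with its neighbour Npat (top) and of Brca1 with its neighbour Nbr1 (bottom) in the RAD21L KO library (left) and the WT library (right), with exact Poisson 95% intervals. Spg, Lep, Zyg, Pac and Rnd are classes as above. Atm and Npat are both highest in Lep, and Brca1 and Nbr1 are both lowest in Pac in WT.

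Each of the 9 genes had a larger share of its KO UMIs in early germ cells than these cells held of all UMIs. In KO the 3 early germ classes held 29.9% of all UMIs and between 46.2% (Rnf8) and 81.5% (Chek1) of the UMIs of each gene. In WT, pachytene-like cells held 39.9% of all UMIs, 74.9% of those of Atr and 74.7% of those of Mdc1, and the 3 early classes, with 4.88% of all UMIs, held 61.3% of those of Atm. Sertoli-like over spermatogonia-like KO cells had ratios between 0.0518 (Chek1, 0.0342 to 0.0758) and 0.620 (Mdc1, 0.543 to 0.707). In Sertoli-like cells 7 of the 9 were past 2-fold lower, beside 58.1% of 14675 genes past 2-fold in either direction (27.3% higher, 30.8% lower). Within KO, the class with the highest share of cells holding a UMI at equal depth was a germ class for all 9 genes. Neither this count nor that by share of UMIs was made over all genes. Whether the 9 genes differ in this from genes at large can therefore not be said.

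**Figure D4:**
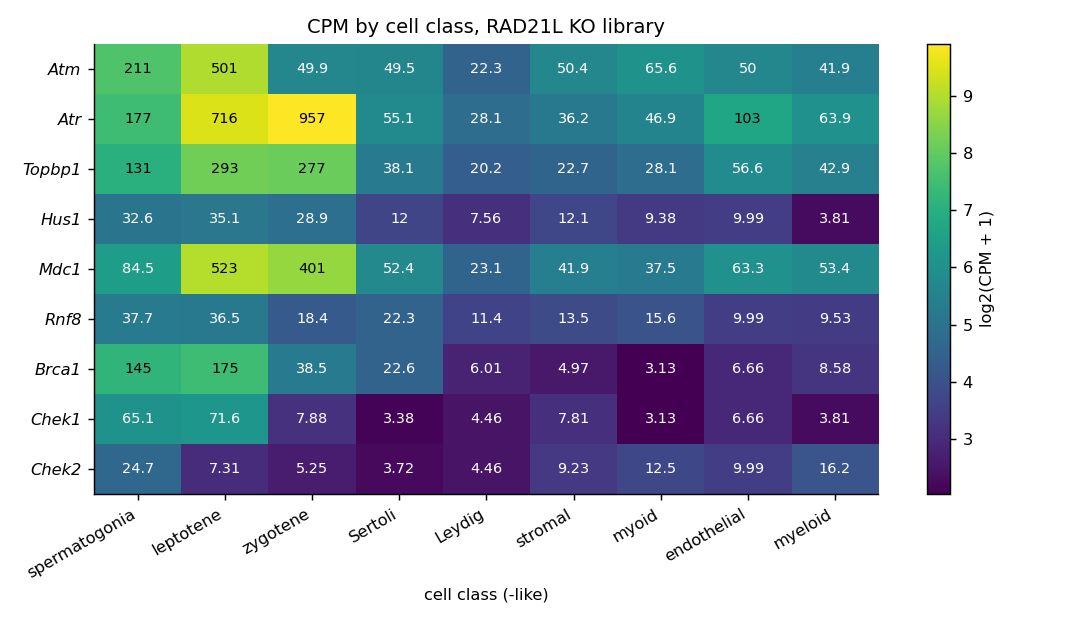
CPM of 9 genes in the cell classes of the RAD21L KO library with at least 50 cells, with the value printed in each cell and log2(CPM + 1) as colour. The 3 germ classes stand left and the 6 somatic classes right.

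Between the 6 somatic classes of KO the levels of Atm lay between 22.3 CPM (Leydig-like) and 65.6 CPM (myoid-like), with overlapping intervals for all but the Leydig-like cells. Atr lay between 28.1 CPM (Leydig-like) and 103 CPM (endothelial-like, 70.2 to 147), and Mdc1 between 23.1 CPM (Leydig-like) and 63.3 CPM (endothelial-like). Brca1 had 22.6 CPM in Sertoli-like cells (19.5 to 26.0) and at most 8.58 CPM in the other 5 classes. Chek2 differed less between germ and somatic cells, with 16.2 CPM in myeloid-like cells (9.44 to 25.9), an interval that overlaps that of spermatogonia-like cells (20.7 to 29.2). The 37 Sertoli-like WT cells had 64.5 CPM of Atm, 67.3 CPM of Atr, 70.1 CPM of Mdc1 and 30.9 CPM of Brca1, each with an interval that overlaps that of Sertoli-like KO cells.

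Between genotypes most of the 9 genes were not past 2-fold in the same class, as was true of most genes at large. Which genes were past 2-fold depended on how the classes were drawn, as given below. In spermatogonia-like cells 1 of 9 was past 2-fold, beside 18.6% of 13438 genes (7.34% higher, 11.3% lower). It was Hus1, with 32.6 CPM in KO and 16.2 CPM in WT (178 and 18 UMIs, ratio 2.01, 1.24 to 3.48). The median gene stood at 0.13 on the log2 scale, and relative to it Hus1 was at 0.88 and no longer past 2-fold. The other ratios lay between 0.798 (Mdc1, 0.650 to 0.985) and 1.45 (Chek1, 1.08 to 1.99). For Atm the ratio was 0.920 (0.803 to 1.06), for Atr 0.962 (0.827 to 1.12) and for Brca1 1.07 (0.897 to 1.28), so differences of 2-fold lay outside their counting intervals. None of the 54 other pathway genes with enough UMIs was past 2-fold. The largest ratios were those of Etaa1, another activator of ATR (1.64, 1.22 to 2.25), Cdc25b (1.54, 0.816 to 3.20) and Cdkn1a (1.46, 0.657 to 3.80). The smallest were those of Ube2n, the ubiquitin enzyme that works with RNF8 (0.5004, 0.443 to 0.566), the acetyltransferase Kat5 (0.581, 0.404 to 0.851) and Tlk2 (0.776, 0.669 to 0.903).

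**Figure D5:**
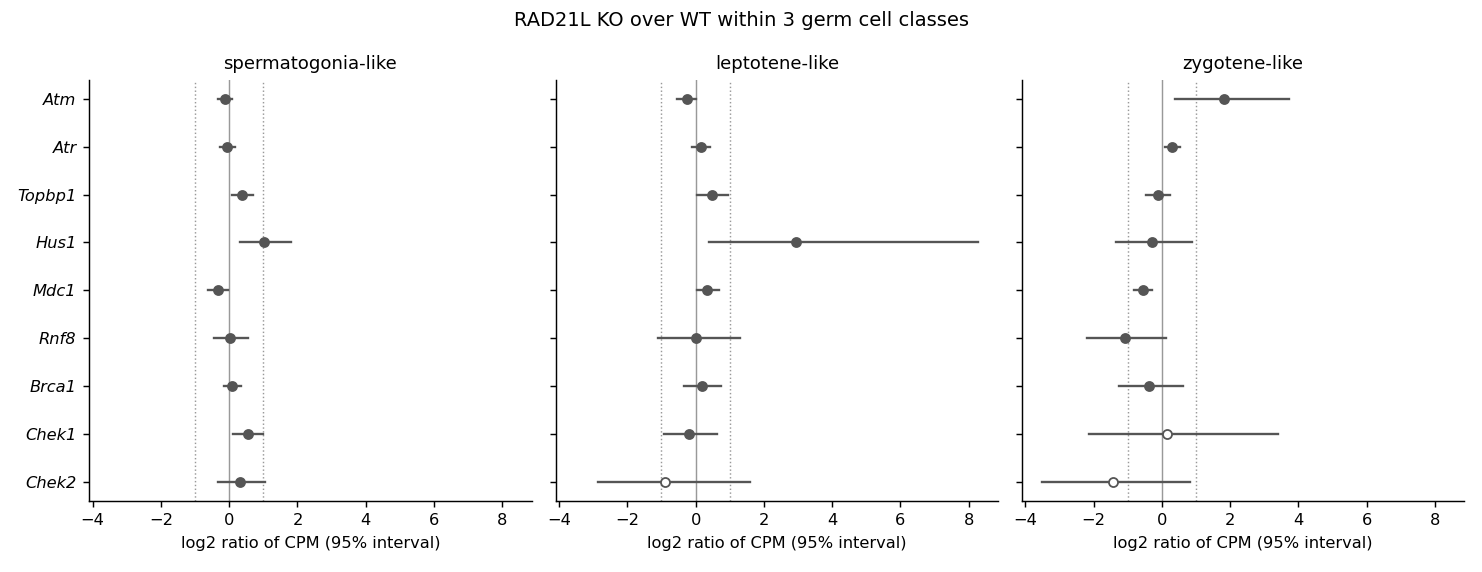
Log2 ratio of CPM, RAD21L KO over WT, of 9 genes in spermatogonia-like, leptotene-like and zygotene-like cells, with exact 95% intervals. Dotted lines mark 2-fold and open circles stand for genes under 20 UMIs. Among genes with at least 20 UMIs, Hus1 lies past 2-fold in the first 2 classes, and Atm and Rnf8 in the third.

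Leptotene-like and zygotene-like cells as 1 class gave 1 of 9 past 2-fold, beside 25.2% of 10732 genes (13.7% higher, 11.4% lower). It was Chek2, with 6.37 CPM in KO and 14.0 CPM in WT (16 and 7 UMIs, ratio 0.455, 0.177 to 1.31), an interval that includes no difference. The ratios of Atm, Atr, Topbp1, Mdc1, Brca1 and Chek1 lay between 0.910 and 1.18 and the median gene at 0.22 on the log2 scale. The stages were mixed in different proportions, 327 to 204 cells in KO and 47 to 44 in WT, so each stage was also compared by itself. The KO and WT cells of a stage came from different clusters. With classes set by per-cell marker gates in place of clusters, Atm, Brca1 and Chek1 were past 2-fold higher in KO, at log2 ratios of 1.21, 1.21 and 1.11, and Chek2 stood at 1.00.

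In leptotene-like cells 1 of 8 was past 2-fold, beside 17.6% of 8618 genes (9.58% higher, 7.98% lower). Hus1 had 48 UMIs in KO and 1 UMI in WT (35.1 and 4.56 CPM, ratio 7.68, 1.31 to 310). With the 1 UMI of WT raised to the 3 counts used for calls, its log2 ratio was 1.36. With cells thinned to 2000 UMIs Hus1 had 25 UMIs in KO and 0 in WT, a log2 ratio of 0.33 against 3 counts, so it was not called there. Atm had 501 CPM in KO and 603 CPM in WT (ratio 0.832, 0.690 to 1.01), and Topbp1 293 and 210 CPM (ratio 1.40, 1.03 to 1.94).

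In zygotene-like cells 2 of 7 were past 2-fold, beside 27.5% of 8204 genes (16.7% higher, 10.8% lower). Atm had 49.9 CPM in KO and 14.2 CPM in WT (57 and 4 UMIs, ratio 3.51, 1.297 to 13.3), and both KO sub-clusters, at 69.7 and 32.7 CPM, stood above the WT value, though the interval of the second (19.97 to 50.5) overlaps that of WT (3.88 to 36.4). Rnf8 had 18.4 CPM in KO and 39.1 CPM in WT (21 and 11 UMIs, ratio 0.470, 0.217 to 1.08), which includes no difference. Mdc1 had 401 CPM in KO and 594 CPM in WT (ratio 0.675, 0.564 to 0.811), short of 2-fold with an interval below 1. Atr had 957 and 775 CPM (ratio 1.23, 1.07 to 1.43). The median gene stood at 0.17 on the log2 scale, and relative to it Atm was at 1.64 and Rnf8 at -1.26. With cells thinned to 2000 UMIs Atm had 23 UMIs in KO and 1 UMI in WT (ratio 4.99, 0.811 to 206). It was not called there because the 1 UMI was raised to 3 counts (log2 ratio 0.74), and Rnf8, at 5 and 2 UMIs, was too low to be called. The zygotene-like cells of the 2 libraries were not at one point of the stage by their markers. Piwil1, which rises into pachytene, had 40.3 CPM in KO and 509 CPM in WT, and Stra8 had 42.9 CPM in KO and 7.11 CPM in WT. The part of this difference in the values above was not tested.

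Markers of other cell types also differed between the early classes of the libraries. All 16 markers of elongating spermatids were found in WT cells of the 3 early classes, at a summed 13250 to 14648 CPM, against 5 to 11 of 16 markers and 6.13 to 7.68 CPM in those of KO. The 16 Sertoli markers summed to between 1791 and 2297 CPM in the KO classes and between 291 and 480 CPM in the WT classes, where between 12 and 16 of them were found. In elongating spermatid-like WT cells the 9 genes had at most 28.6 CPM and in Sertoli-like KO cells at most 55.1 CPM. Zygotene-like cells held 2.11% of the Atm UMIs and 4.28% of all UMIs in KO, and 0.625% and 0.850% in WT. Atm in these cells thus lay below the mean of its own library in both. The amount of free RNA in the classes was not measured. With 10% of the library profile taken off as free RNA the same genes were past 2-fold in each of the 4 comparisons of KO with WT.

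Of the other pathway genes 8 of 53 were past 2-fold in the combined leptotene-like and zygotene-like cells, 6 higher and 2 lower, beside 25.2% of all genes (13.7% higher, 11.4% lower). The largest ratios were those of Scml2, a Polycomb protein of the sex chromosomes in meiosis (828 CPM in KO and 244 CPM in WT, ratio 3.39, 2.83 to 4.11), Cdkn1a, a cell cycle inhibitor (48 and 2 UMIs, ratio 4.78, 1.25 to 40.6), and the cohesin subunit Smc1a (110 and 36.0 CPM, ratio 3.05, 1.90 to 5.23). Scml2 and Smc1a are X-linked. Genes were ranked with 3 UMIs in place of any lower count, which put X-linked Brcc3, with 42 UMIs in KO and 0 in WT, behind these. The smallest were those of Ppm1d, a phosphatase that opposes ATM (30.7 CPM in KO and 78.0 CPM in WT, ratio 0.393, 0.264 to 0.594), Ube2n (161 and 350 CPM, ratio 0.460, 0.384 to 0.552) and Ube2v2, its partner (99.2 and 156 CPM, ratio 0.636, 0.491 to 0.831). Ube2n was thus low in KO in both classes, with a ratio of 0.5004 in spermatogonia-like cells.

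Likeness of pattern was taken as Pearson's r of log2(CPM + 1) over 14 classes of at least 50 cells, 10 of KO and 4 of WT (the WT leptotene-like and zygotene-like classes were too small), among 12591 genes with at least 200 UMIs. Classes of 1 library share depth and free RNA, so r is a description only. Of the genes named here, Sycp3 and Hormad1 were markers of the zygotene-like class, and Tex15 and Rec114 of the leptotene-like class. Their r is therefore not independent of the class names. Atr and Mdc1 were each other's nearest gene (r = 0.975), followed for Atr by the axis protein gene Sycp3 (0.961) and Odf2l (0.960), and for Mdc1 by Btaf1 (0.964) and Hormad1 (0.943). Atm was nearest to H1f2 (0.979), Lyst (0.975) and Ppp4r3a (0.973), and had r = 0.402 with Atr. Brca1 was nearest to Mcm8 (0.958), Tasor2 (0.939) and Mms22l (0.937), and Chek1 to Mbd4 (0.956), Tex15 (0.948) and Rec114 (0.936). Brca1 and Chek1 had r = 0.920 with each other. Topbp1 was nearest to Zbtb17 (0.970), Sfi1 (0.965) and Ubn1 (0.961), Hus1 to Bud13 (0.966), Nup85 (0.952) and Ube2o (0.946), Rnf8 to Xpo1 (0.979), Fancm (0.972) and Farsa (0.967), and Chek2 to Rplp2 (0.962), Mast3 (0.961) and Pip5k1c (0.952). The lowest r between 2 of the 9 genes was that of Chek2 and Mdc1, 0.060.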

How the data were processed

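Per the submitters' processing notes the authors used Cell Ranger 6.1.2, Seurat 4.3 and the GRCm39 build. The deposited tables are raw UMI counts, with no normalization. How barcodes were called as cells, and which transcript end was read, is not given in the sources used here. Cells with at least 500 genes and at most 20% mitochondrial UMIs were kept. Doublets were called per library with Scrublet in Scanpy 1.11.5. It marked 126 KO cells (1.97%), which were removed, and 1 WT cell (0.0185%), which is too few for a working call, so no WT cell was removed. Both libraries were clustered together, with no integration, on 2000 variable genes that left out the 10 genes and 56 other pathway genes (30 principal components, 15 neighbours, Leiden resolution 1), and early germ cells were clustered again per library. Clusters were named from 202 markers of 15 classes, by the highest mean log2 marker fold against all kept cells. Where scores lay within 0.25 of the highest, the class with most markers among the 10 leading genes gave the name. A cluster stayed unnamed where it rested on under 3 detected markers, had a median UMI count under the set fraction of its library's, or was led by genes of another class.

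Within each class of a library the UMIs were added up and expressed as CPM. A gene with at least 20 UMIs in both groups together was called past 2-fold from the ratio of CPM with any count under 3 raised to 3. Medians of lists use the same values, and printed ratios use the counts as they are. Kept cells had a median of 3429 UMIs in KO and 2230.5 in WT. The pipeline's ratios were tested on simulated data. The genes named are the 10 members, Rad21l, the 3 largest and 3 smallest pathway ratios per KO and WT class, and the 3 genes nearest to each member. Other genes named were picked after their values were seen. The members and lists were chosen with earlier results of these data known. A planned count of ATM and ATR target motifs in the proteins was not run. Hi-C data that the study describes were not used here.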

Additional observations from a re-analysis of the deposited data

Results flagged for a closer look

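Mdc1 moved in opposite directions in the 2 libraries between leptotene-like and zygotene-like cells. The ratio of zygotene-like over leptotene-like cells was 0.766 (0.680 to 0.863) in KO and 1.45 (1.11 to 1.89) in WT, so both counting intervals lay off 1, on opposite sides. The log2 change in KO minus that in WT was -0.92. Each library is 1 sample, and the difference between them was not tested. The leptotene-like KO cells held a sub-cluster at 690 CPM of Mdc1 beside one at 445 CPM, and the leptotene-like WT cells, at 411 CPM, formed a single sub-cluster. The part of this mix in the difference was not tested. With per-cell marker gates in place of clusters, the log2 ratio of Mdc1 was 0.16 in KO and 1.12 in WT, so the directions were then no longer opposite.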

How the results depend on the processing

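No paired analysis was possible because each genotype has 1 library. Of 432 single-gene values recomputed under 10 alternatives, 410 stayed inside their counting interval, 21 left it and 1 turned round. The alternatives did not weigh alike. Per-cell marker gates, which redraw the classes, kept 31 values inside, while 15 left and 1 turned round. Settings that keep nearly the same early germ cells, such as the 2 other resolutions, moved none, so the total says little about the choice of classes.

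Hus1 was no longer past 2-fold in spermatogonia-like cells (0 of 9 genes in place of 1) with the median gene set to no difference, with at least 1000 genes per cell and with per-cell marker gates. Over leptotene-like and zygotene-like cells together the count past 2-fold was 0 with at least 1000 genes per cell and with cells thinned to 2000 UMIs. Per-cell marker gates, which put 205 WT cells into the zygotene-like class in place of 44, gave 3, with Atm, Brca1 and Chek1 higher in KO, and turned Chek2 to a log2 ratio of 1.00. They gave 2 in leptotene-like cells. Thinning gave 0 in leptotene-like and 0 in zygotene-like cells, where Hus1 (25 UMIs in KO and 0 in WT) and Atm (23 and 1, ratio 4.99) lost their calls because WT counts under 3 were raised to 3. For zygotene-like over leptotene-like KO cells thinning added Rnf8 to Atm, Brca1 and Chek1 as past 2-fold lower. For zygotene-like over leptotene-like WT cells the count was 1 (Atm) after thinning and 5 with the gates, in place of 3. For pachytene-like over zygotene-like WT cells it was 1 after thinning, in place of 6. Thinning leaves fewer UMIs, so fewer genes reach 20. For the other settings the cause was not tested. Atm was lower in zygotene-like than in leptotene-like cells of both libraries under every alternative run, and with the gates its log2 change was -2.63 in KO and -3.85 in WT. The weighting of both stages equally, and the use of all UMIs for shares, were chosen after the data were seen.

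The WT early classes, at 47 and 44 cells, set the precision. Genes with under about 20 UMIs over both together (Hus1, Rnf8 and Chek2) can hardly be ordered between stages or genotypes. Chek1, with 18 and 2 UMIs there, just reached 20. Atm and Brca1 had 4 and 14 UMIs in zygotene-like WT cells. At equal depth Chek1 had 8 and 0 UMIs and Brca1 11 and 2, too few for a call between these stages in WT. Their ratio intervals still excluded no difference (upper limits 0.640 and 0.911).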
